A study of Mus musculus with 6 samples.

Results

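The SLAM receptor system of cultured mouse lung group 2 innate lymphoid cells (ILC2s) was described at the RNA level through 9 genes, out of 17438 genes in the deposited count table. They were taken by name: the receptor genes Cd48, Ly9, Slamf1 and Cd84, and 5 genes of cytoplasmic partners, Sh2d2a, Fyn, Inpp5d, Ptpn6 and Ptpn11. ILC2s are tissue lymphocytes without antigen receptors, which secrete type 2 cytokines such as IL-5 and IL-13 when damaged epithelium releases IL-33. By their labels, the Cd48 KO libraries (n = 3, KO1 to KO3) carried the genotype B6.129S4-Cd48tm1Rsr/EpaulJ and the WT libraries (n = 3, WT1 to WT3) the genotype WT. All 6 shared the strain label CB57BL/6, sorted ILC2s from lung, treatment with IL-33 and a period in culture, and 10 pg of RNA entered each library. Neither the age of the mice nor the dose and duration of IL-33 was given. The allele name records a targeted Cd48 allele made on 129S4 DNA and placed on a B6 background, so the loss of Cd48 and the 129S4 DNA that may flank it cannot be told apart in these mice. Nothing states that the samples came from separate animals, and the design text speaks of duplicates where 3 libraries per genotype were given, so p-values reflect only how far these libraries spread, and part of that spread may be technical.

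SLAM receptors are a family of immunoglobulin-like surface proteins of blood cells, most of which bind a second copy of themselves on a neighbouring cell. CD48 is an exception: it is held in the membrane by a lipid (GPI) anchor, has no cytoplasmic tail, and is the ligand of CD244 and, in rodents, of CD2. Most of the other receptors carry tyrosine motifs in their tails, which recruit either small adaptors of the SAP family together with the kinase FYN, or the phosphatases SHP-1, SHP-2 and SHIP-1, and the balance of these partners sets whether a contact activates or restrains a lymphocyte.

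Library totals were 16135210 to 17600475 counts in Cd48 KO and 14928623 to 27450400 counts in WT. WT1 stood apart from the rest: its log2 levels correlated with those of the other libraries at r = 0.924 to 0.935 across 13317 genes, against 0.980 to 0.988 among the other libraries, and genes are not independent replicates. Results that rest on it are therefore given with and without it. All 12 listed ILC2 markers were measured, and their summed level was 13514.5 to 14349.1 CPM (counts scaled to library size) in Cd48 KO and 11824.5 to 15863.4 CPM in WT. Thy1, a surface marker of ILC2s, was the lowest of them at 6.05 to 7.19 CPM in Cd48 KO and 8.9 to 12.4 CPM in WT. It was the only 1 of the 12 lower in every KO library, whereas Il1rl1 and Il2ra were higher in every one and 9 overlapped. Il1rl1 stood at 1316.9 to 1347.0 CPM in Cd48 KO and 610.6 to 1276.0 CPM in WT. Il2ra stood at 2025.3 to 2091.1 CPM in Cd48 KO and 1564.2 to 1775.6 CPM in WT. Of the lists for other cell types, 4 had sums that were lower in every Cd48 KO library than in any WT library. T cell markers (5 of 9 measured) summed to 31.9 to 37 CPM in Cd48 KO and 43.2 to 57.5 CPM in WT, with Cd3g at 12.9 to 13.9 CPM in Cd48 KO and 22.9 to 41 CPM in WT. Cd3e too was lower in every KO library, whereas Lef1 was higher in every one, at 15 to 18.7 CPM in Cd48 KO and 14 to 14.7 CPM in WT, and Cd28 overlapped. Cd3d stayed at or below 0.307 CPM in Cd48 KO and 0.574 CPM in WT. Macrophage and dendritic cell markers (10 of 11) summed to 58.7 to 60.1 CPM in Cd48 KO and 71 to 81.6 CPM in WT. Most of it was Xcr1, and each of the 10 genes taken alone overlapped between the genotypes. Epithelial markers (7 of 7) summed to 10 to 23.8 CPM in Cd48 KO and 31.4 to 72.8 CPM in WT, and 3 of the 7, Epcam, Krt8 and Cdh1, were lower in every KO library. Of mast cell and basophil markers only Cpa3 was measured (1 of 7), at 0.244 to 0.369 CPM in Cd48 KO and 0.467 to 1.47 CPM in WT. Among endothelial markers (2 of 6 measured) Pecam1 went the other way and Vwf overlapped. Pecam1 was higher in every KO library, at 40.1 to 41.9 CPM in Cd48 KO and 29.1 to 39.8 CPM in WT. Of all tested genes, 9.11% were lower and 10.2% higher in every KO library than in any WT library.

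Cd48 (ENSMUSG00000015355.13, GRCm38 chromosome 1, 171682009 to 171705258, plus strand) was lower in every KO library, so the targeted gene matches the genotype label of each library. It received 74, 91 and 78 counts in KO1, KO2 and KO3, against 833, 698 and 1158 counts in WT1, WT2 and WT3. The level averaged 4.84 ± 0.657 CPM in Cd48 KO and 48.8 ± 8.51 CPM in WT (SD, n = 3 each), so that 9.92% of the WT level remained. The 3 KO libraries lay close together and far below the lowest WT library. The log2 fold change was -3.33 (SE 0.20, 95% interval -3.81 to -2.86), with an adjusted p of 0.00285 (edgeR quasi-likelihood test, Benjamini-Hochberg over all genes). This call was lost without KO1 (-3.28, adjusted p 0.0754) and without KO3 (-3.27, adjusted p 0.0775), and without WT1 it was made at -3.18 (SE 0.15, adjusted p 3.52e-07). The counts are per gene, so which exons the remaining KO counts come from was not analysed here.

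**Figure D1:**
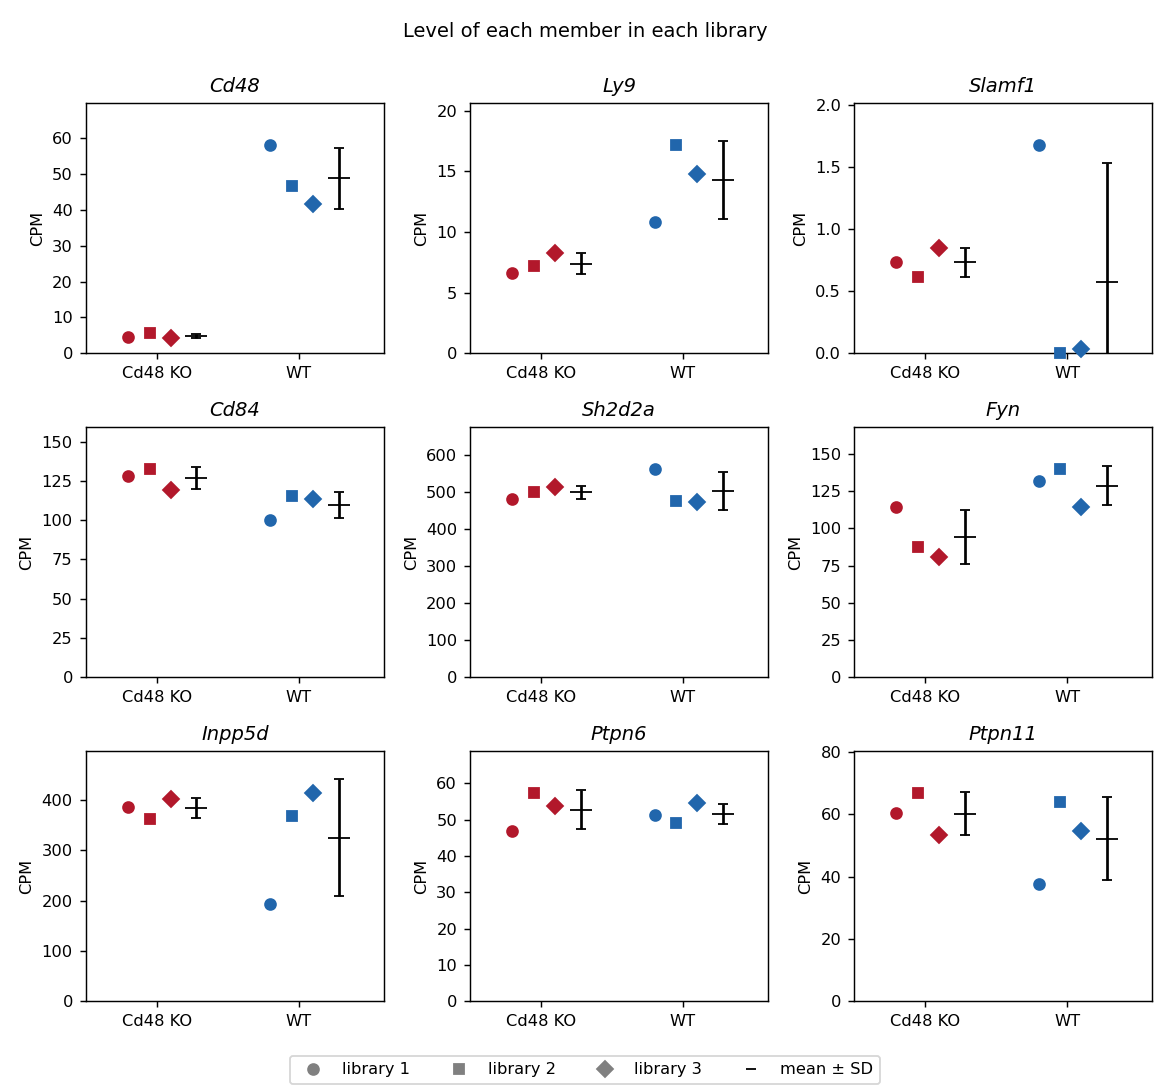
Level of each of the 9 genes in each library, in CPM on a linear axis that starts at 0. Red points are the Cd48 KO libraries and blue points the WT libraries, marker shapes give library 1, 2 and 3, and black bars give the mean ± SD of each group. Cd48 and Ly9 are lower in all KO libraries, Cd84 is higher in all of them, and Slamf1 in WT is carried by WT1. The lower SD bar of Slamf1 in WT would run below 0 and is drawn to 0.

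Of the 9 genes, all were tested and 1 was called with all 6 libraries (0 higher, 1 lower), where 0.0300% of all 13317 tested genes passed (0.0150% in each direction). At an unadjusted p under 0.05 there were 6.89% of tested genes with all 6 libraries and 13.7% without WT1. The groups did not overlap for 3 of them, Cd48 and Ly9 (lower in Cd48 KO) and Cd84 (higher), where 19.3% of all tested genes did not overlap, 10.2% higher and 9.11% lower. Without WT1, 3 of the 9 were called (Slamf1 higher, Cd48 and Ly9 lower), where 1.82% of all 13643 tested genes passed (1.17% upward, 0.652% downward). The groups did not overlap for 5 of the 9 without WT1, 3 higher and 2 lower, where 30.0% of all tested genes did not, 15.8% higher and 14.3% lower. The median log2 fold change of the 9 was 0.03 in each fit, and that of all tested genes was 0.00 in each.

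The promoters of Cd48, Slamf1 and Cd84 are shown because these neighbouring receptor genes stood at very different levels in the same cells. Each is the run of 250 bases before the gene start in RefSeq (build GRCm38.p6, plus strand, reference genome, so 129S4 bases are not shown), and capitals mark a RUNX motif. The windows are chr1:171681742-171681991 for Cd48, chr1:171766882-171767131 for Slamf1 and chr1:171839447-171839696 for Cd84.
Cd48: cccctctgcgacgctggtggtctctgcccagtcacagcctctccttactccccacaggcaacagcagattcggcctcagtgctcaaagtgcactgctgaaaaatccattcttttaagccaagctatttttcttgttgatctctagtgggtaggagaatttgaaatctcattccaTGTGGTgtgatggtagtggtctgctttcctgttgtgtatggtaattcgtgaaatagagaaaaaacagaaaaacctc
Slamf1: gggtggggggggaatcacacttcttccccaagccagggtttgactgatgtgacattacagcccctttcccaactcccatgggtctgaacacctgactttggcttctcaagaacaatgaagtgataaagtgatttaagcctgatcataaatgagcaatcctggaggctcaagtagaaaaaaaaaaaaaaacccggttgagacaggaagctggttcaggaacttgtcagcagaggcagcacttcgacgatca
Cd84: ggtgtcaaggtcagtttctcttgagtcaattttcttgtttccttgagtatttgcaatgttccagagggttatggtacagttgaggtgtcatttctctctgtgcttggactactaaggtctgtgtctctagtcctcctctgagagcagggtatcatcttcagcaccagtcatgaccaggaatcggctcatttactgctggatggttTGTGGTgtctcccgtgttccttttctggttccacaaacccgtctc
Motifs of 5 factor families of lymphocytes were searched on both strands, in the promoters of the 7 of 9 genes that had one. The RUNX motif TGTGGT, held by 14% of 32817 promoters, began 76 bases before the start of Cd48 and 45 bases before that of Cd84, and no searched motif was found in the Slamf1 window. The ETS motif GGAAGT, held by 19.7% of promoters, was found once in the promoter of Inpp5d and at 2 positions in that of Ptpn6. The GATA motif AGATAA (9.99% of promoters), the STAT motif TTCNNNGAA (7.01%) and the E-box CACGTG (6.02%) matched none of the 7, and none of the motifs searched was found in the promoters of Fyn and Ptpn11. These matches describe the letters of the windows only.

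Ly9 (CD229, ENSMUSG00000004707.14, chromosome 1, 171588624 to 171607410, minus strand) encodes a receptor that binds itself and restrains innate-like lymphocytes in mice. Its level was 6.6, 7.19 and 8.3 CPM in KO1, KO2 and KO3, against 10.8, 17.2 and 14.8 CPM in WT1, WT2 and WT3. All KO libraries were below all WT libraries, and the nearest WT library was WT1. The means were 7.36 ± 0.864 CPM in Cd48 KO and 14.2 ± 3.26 CPM in WT (SD, n = 3 each), so the KO mean was 51.7% of the WT mean. With all 6 libraries the log2 fold change of Ly9 was -0.95 (SE 0.23, 95% interval -1.49 to -0.42) and did not pass over all genes (adjusted p 0.67, edgeR; unadjusted p 0.00412). Ly9 fell without WT1 (-1.11, SE 0.18, 95% interval -1.50 to -0.72, adjusted p 0.00875, edgeR), and that call ended when WT2 was left out too (adjusted p 0.0645). On all 6 libraries it was called lower by DESeq2 (adjusted p 0.0338), which called 0.811% of tested genes, and by limma-voom using quality weights per sample (adjusted p 0.0164), which called 0.713%. Limma-voom without those weights did not call Ly9 (adjusted p 0.668). Nor did any edgeR alternative on all 6 libraries (adjusted p 0.594 to 0.753). The gene overlaps Cd244a on the opposite strand, but the annotated exons of the pair share 0 bases. The T cell, macrophage and dendritic cell, epithelial and mast cell marker sums were lower in the same libraries as Cd48 and Ly9. Lef1 and the endothelial marker Pecam1 went the other way, and each macrophage and dendritic cell marker taken alone overlapped. The part of such cells in these results was not tested. In bulk RNA, fewer cells of a type that holds the transcript and less of it per cell cannot be told apart.

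Slamf1 (CD150, ENSMUSG00000015316.11, chromosome 1, 171767127 to 171801184, plus strand) encodes the founding SLAM receptor, a self-ligand that costimulates T cells and recruits SAP. It was close to the detection limit and received 12, 10 and 15 counts in KO1, KO2 and KO3, against 24, 0 and 1 counts in WT1, WT2 and WT3. The KO libraries were alike, whereas the WT libraries split between WT1, the highest of all 6, and the others, which were almost empty. A count of 0 in WT2 allows up to 0.201 CPM, and the KO libraries held 0.733, 0.615 and 0.847 CPM. Pooled over libraries, the rate of Slamf1 counts in Cd48 KO was 1.69 times that in WT (37 and 25 counts, exact 95% interval 0.993 to 2.94). Against WT2 and WT3 alone it was 31.3 times (37 and 1 counts, 95% interval 5.28 to 1269.9). These intervals and limits cover counting error only, since reads copied by PCR and carrying no molecular identifiers do not each stand for a molecule. With all 6 libraries edgeR gave Slamf1 an adjusted p of 0.893 (log2 fold change 0.46, 95% interval -2.65 to 3.57). Without WT1 it was called higher with an adjusted p of 0.0401, a call that rests on 1 WT count. It ended in DESeq2 (0.0622), with no filter on low counts (0.0575), and when KO2, KO3, WT2 or WT3 was left out as well (adjusted p 0.101, 0.15, 0.214 and 0.171).

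Cd84 (ENSMUSG00000038147.13, chromosome 1, 171839697 to 171890718, plus strand) encodes a self-binding receptor found on many blood cells, mast cells and platelets included. Its level was 128.2, 132.8 and 119.2 CPM in KO1, KO2 and KO3, against 100.1, 115.6 and 113.6 CPM in WT1, WT2 and WT3. Every KO library was above every WT library, though KO3 and WT2 were near each other. Means were 126.7 ± 6.91 CPM in Cd48 KO and 109.8 ± 8.46 CPM in WT (SD, n = 3 each). The difference in Cd84 did not pass (log2 fold change 0.21, 95% interval -0.06 to 0.48, adjusted p 0.69, edgeR). Without WT1 it was 0.15 (95% interval -0.01 to 0.31, adjusted p 0.418).

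The other measured receptors were nearly silent in both genotypes. Cd2, which encodes a second partner of CD48 in mice, received 18, 3 and 8 counts in KO1, KO2 and KO3, against 9, 8 and 8 counts in WT1, WT2 and WT3. Slamf6 (Ly108), a self-binding receptor of T, B and NK cells, received 12, 8 and 9 counts in the KO libraries and 0, 9 and 20 in the WT libraries. Slamf7 (CRACC), another self-binding receptor, received 12, 2 and 0 counts in the KO libraries and 18, 8 and 5 in the WT libraries. KO and WT counts overlapped for all 3, and none passed the filter on low counts with all 6 libraries. Without WT1, Slamf6 could be tested and did not pass (log2 fold change -0.20, 95% interval -1.44 to 1.03, adjusted p 0.926, edgeR), while Cd2 and Slamf7 were not tested. Exons of Slamf7 overlap those of the opposite-strand gene Gm37787. Cd244a, Slamf8, Slamf9 and the SAP family genes Sh2d1a, Sh2d1b1 and Sh2d1b2 were not analysed here.

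To compare receptors with one another, levels were divided by the length of the longest annotated transcript (CPM per kb), and the 7 measured receptor genes, Cd2 counted among them, were summed. In Cd48 KO the receptor RNA was mostly Cd84, while in WT Cd48 held the largest share and Cd84 the next. The sum was 45.2, 46.7 and 42.4 CPM per kb in KO1, KO2 and KO3, against 83.7, 80.6 and 74.5 CPM per kb in WT1, WT2 and WT3. The groups did not overlap. Cd84 made up 82.4 ± 0.521% of the sum in Cd48 KO and 40.3 ± 4.97% in WT, and Cd48 made up 9.09 ± 0.889% in Cd48 KO and 51.5 ± 6.22% in WT (SD, n = 3 each). The share of Ly9 was 6.64 ± 1.07% in Cd48 KO and 7.24 ± 1.83% in WT, and its ranges overlapped. Because the sum includes Cd48, the shares of Cd84 and Ly9 also move with the loss of Cd48. The level of Ly9 itself was 2.96 ± 0.347 CPM per kb in Cd48 KO and 5.72 ± 1.31 CPM per kb in WT (SD, n = 3 each). Left without Cd48, the remaining 6 genes summed to 40.7 ± 1.74 CPM per kb in Cd48 KO and 38.5 ± 3.4 CPM per kb in WT, a difference smaller than the spread of the WT libraries. Per summed exon length, which is longer for Cd84, Cd84 made up 74.6 ± 0.528% of the sum in Cd48 KO and 27.9 ± 4.26% in WT, and Cd48 15 ± 1.41% in Cd48 KO and 64.4 ± 5.64% in WT (SD, n = 3 each). The balance of Cd48 and Cd84 in WT therefore depends on the length used. No test was made of these sums.

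**Figure D2:**
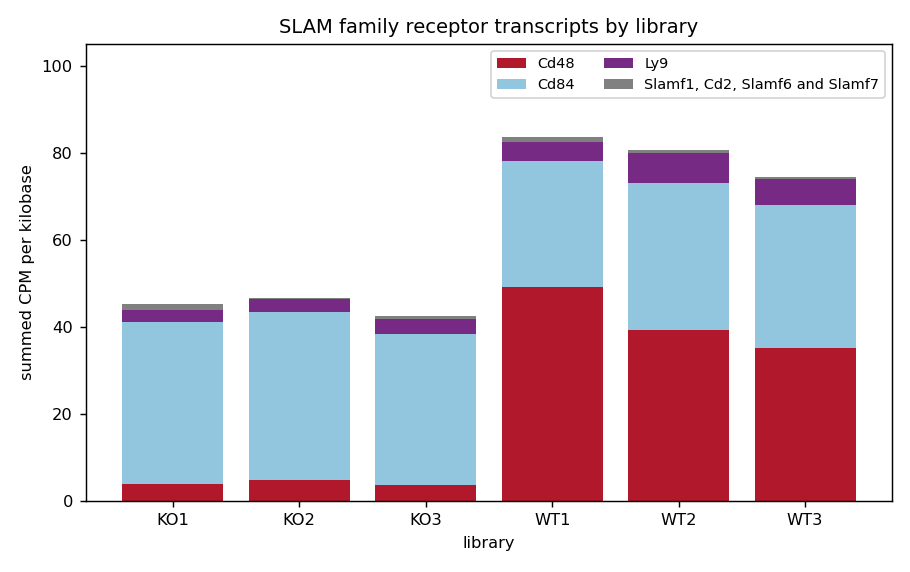
Summed level of the 7 measured SLAM receptor genes in each library, in CPM per kb of the longest annotated transcript, with Cd48, Cd84 and Ly9 stacked in colour and the other 4 genes together in grey. Each KO library sums to 42.4 to 46.7 and is mostly Cd84, and each WT library sums to 74.5 to 83.7 and divides between Cd48 and Cd84.

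All of these receptor genes except Cd2 lie in a cluster on chromosome 1, where 6 measured genes span 364.5 kb. Ly9 starts 74.6 kb before the Cd48 start and Slamf7 29 kb before it, and Slamf1, Cd84 and Slamf6 start 85.1, 157.7 and 235.5 kb after it. The nearest tested receptor genes on the 2 sides, Ly9 and Slamf1, had log2 fold changes of opposite sign with all 6 libraries and without WT1, but that of Slamf1 turned negative without WT2 or without WT3. Within 1 Mb of the Cd48 start, 37 other genes were tested. Their median log2 fold change with all 6 libraries was -0.01. There edgeR called 0 of the 37, against 0.0300% of all tested genes. At an unadjusted p under 0.05 edgeR gave 12 of the 37, against 6.89% of all tested genes. DESeq2 called 4, Ly9 among them, against 0.811% of all tested genes. With sample quality weights limma-voom called 6, Ly9 and Slamf1 among them, against 0.713%. Without WT1, 9 of these 37 (24.3%) were called, 3 higher and 6 lower, with Ly9 and Slamf1 among them, against 1.82% of all tested genes.

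**Figure D3:**
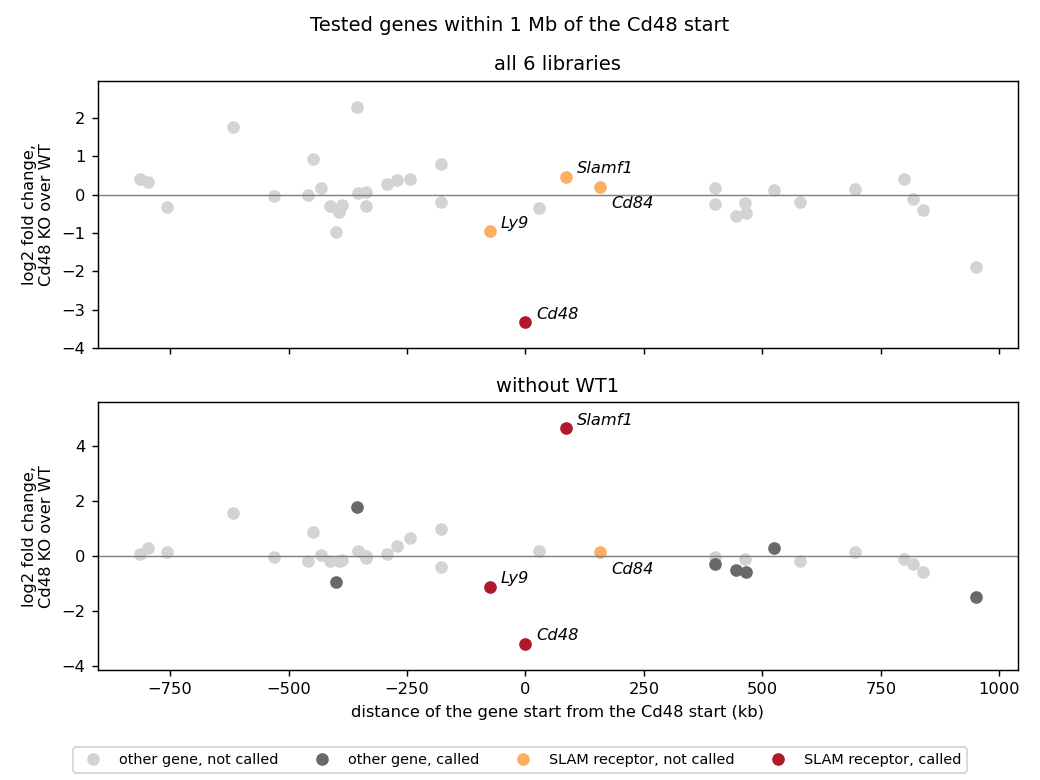
Log2 fold change (Cd48 KO over WT) of each tested gene against the distance of its start from the Cd48 start in kb, with all 6 libraries (upper panel) and without WT1 (lower panel). Orange and red points are SLAM receptors, red where called, and grey points are other genes, dark where called. Cd48 is the lowest point of both panels, and Ly9 and Slamf1 are called in the lower panel only.

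Among the cytoplasmic partners 0 of 5 were called by edgeR with all 6 libraries or without WT1, where edgeR called 0.0300% and 1.82% of all tested genes. At an unadjusted p under 0.05 there was 1, Fyn, in each of these fits, against 6.89% and 13.7% of all tested genes (edgeR). DESeq2 with all 6 libraries also called 0 of 5, where it called 0.811% of all tested genes. Fyn (ENSMUSG00000019843.14, chromosome 10, 39368855 to 39565381, plus strand) encodes the Src family kinase that SAP brings to receptor tails. Its level was 114.6, 87.7 and 80.5 CPM in KO1, KO2 and KO3, against 131.6, 140.1 and 114.2 CPM in WT1, WT2 and WT3. KO2 and KO3 were below every WT library, while KO1 was level with WT3, so that the groups overlapped narrowly. The means were 94.3 ± 17.9 CPM in Cd48 KO and 128.6 ± 13.2 CPM in WT (SD, n = 3 each), the KO mean being 73.3% of the WT mean. Fyn did not pass with all 6 libraries (log2 fold change -0.45, 95% interval -0.85 to -0.05, adjusted p 0.69, edgeR) or without WT1 (-0.43, 95% interval -0.80 to -0.05, adjusted p 0.294). Without both WT1 and KO1, the KO library with the most Fyn, it was called lower (-0.59, adjusted p 0.0154, edgeR), where 3.82% of tested genes were called. Leaving out KO2 or KO3 with WT1 gave -0.38 and -0.33 and no call (adjusted p 0.615 and 0.486, edgeR).

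Sh2d2a (ENSMUSG00000028071.12, chromosome 3, 87846755 to 87855722, plus strand) encodes TSAd, an SH2-domain adaptor of activated lymphocytes that binds the Src family kinase LCK, and is not itself one of the SAP adaptors. It was the most abundant of the 9 genes per length. Its level was 481.5, 501.2 and 513.9 CPM in KO1, KO2 and KO3, against 563.4, 475.3 and 473.5 CPM in WT1, WT2 and WT3. WT1 was the highest and the other 5 libraries lay within a narrow range. The log2 fold change was -0.01 (95% interval -0.28 to 0.25, adjusted p 0.961, edgeR), and without WT1 it was 0.08 (95% interval -0.04 to 0.19, adjusted p 0.606).

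The phosphatases had levels that were close between the genotypes once WT1 was set aside. Inpp5d (ENSMUSG00000026288.14, chromosome 1, 87620312 to 87720507, plus strand) encodes SHIP-1, which removes a phosphate from the lipid messenger made by PI3K. It stood at 387.4, 362.5 and 401.6 CPM in KO1, KO2 and KO3, against 194.0, 367.8 and 415.2 CPM in WT1, WT2 and WT3. WT1 alone was low, and WT2 and WT3 overlapped the KO libraries. The log2 fold change of Inpp5d was 0.24 (95% interval -0.40 to 0.88, adjusted p 0.746, edgeR) with all 6 libraries and -0.03 (95% interval -0.17 to 0.12, adjusted p 0.918) without WT1.

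Ptpn11 (ENSMUSG00000043733.14, chromosome 5, 121130533 to 121191397, minus strand) encodes SHP-2, a tyrosine phosphatase that mostly promotes Ras signalling. It stood at 60.3, 67 and 53.5 CPM in KO1, KO2 and KO3, against 37.7, 64 and 54.8 CPM in WT1, WT2 and WT3. Again WT1 was the lowest and the groups overlapped. Its log2 fold change was 0.21 (95% interval -0.30 to 0.71, adjusted p 0.732, edgeR) with all 6 libraries and 0.03 (95% interval -0.21 to 0.27, adjusted p 0.955) without WT1. Ptpn6 (ENSMUSG00000004266.15, chromosome 6, 124720707 to 124738714, minus strand) encodes SHP-1, an inhibitory tyrosine phosphatase of blood cells. It stood at 46.9, 57.5 and 53.8 CPM in KO1, KO2 and KO3, against 51.3, 49.1 and 54.5 CPM in WT1, WT2 and WT3. The Ptpn6 groups overlapped fully, and the log2 fold change was 0.03 (95% interval -0.28 to 0.34, adjusted p 0.928, edgeR). Of its exons, 195 bases are shared with the opposite-strand gene Gm20531, and since use of strand in counting is not given, the reads of the pair cannot be told apart there.

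**Figure D4:**
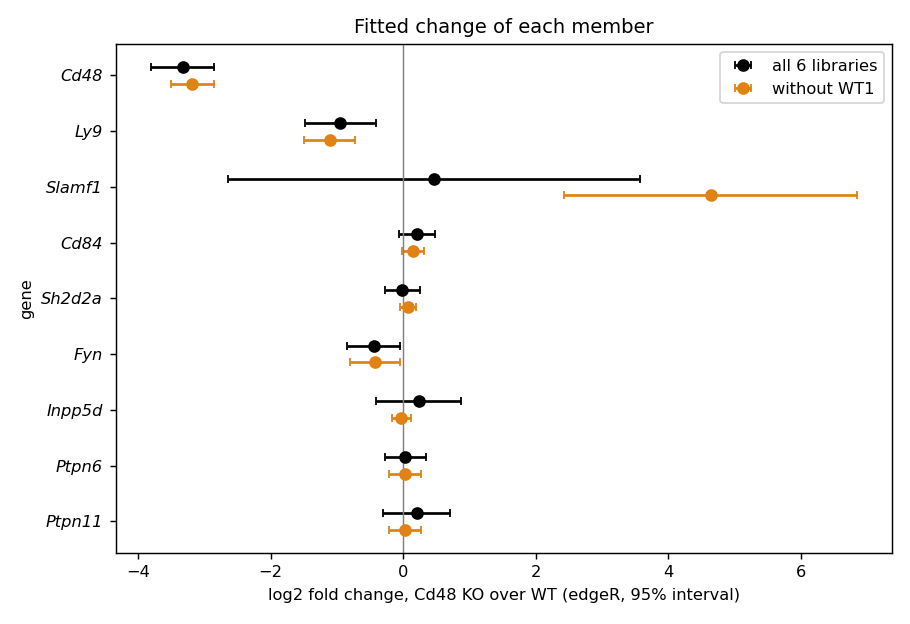
Log2 fold change (Cd48 KO over WT) of the 9 genes with its 95% interval, with all 6 libraries and without WT1. The intervals of Cd48, Ly9 and Fyn lie below 0 in both fits, the intervals of Sh2d2a, Inpp5d, Ptpn6 and Ptpn11 span 0 and narrow without WT1, and Slamf1 is at 0.46 with all 6 libraries and at 4.64 without WT1.

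The distance of WT1 from the other WT libraries changed with transcript length. Its median log2 level minus that of WT2 and WT3 was 0.30 for transcripts shorter than 1000 bases and -0.90 for those of 8000 bases or more. Some members went with this trend and others departed from it. Ly9 (2488 bases) was at -0.56, against a median of 0.03 for transcripts of 2000 to 4000 bases. Cd48 (longest transcript 1186 bases) was higher in WT1 by 0.40, and Inpp5d (4937 bases) and Ptpn11 (7442 bases) were at -1.01 and -0.65. Sh2d2a (4484 bases) was at 0.25 and Slamf1 (4420 bases) at 3.92, against a median of -0.40 for transcripts of 4000 to 8000 bases. The part of this trend in the results of each gene was not tested beyond leaving WT1 out and a fit with the trend in its offsets.

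**Figure D5:**
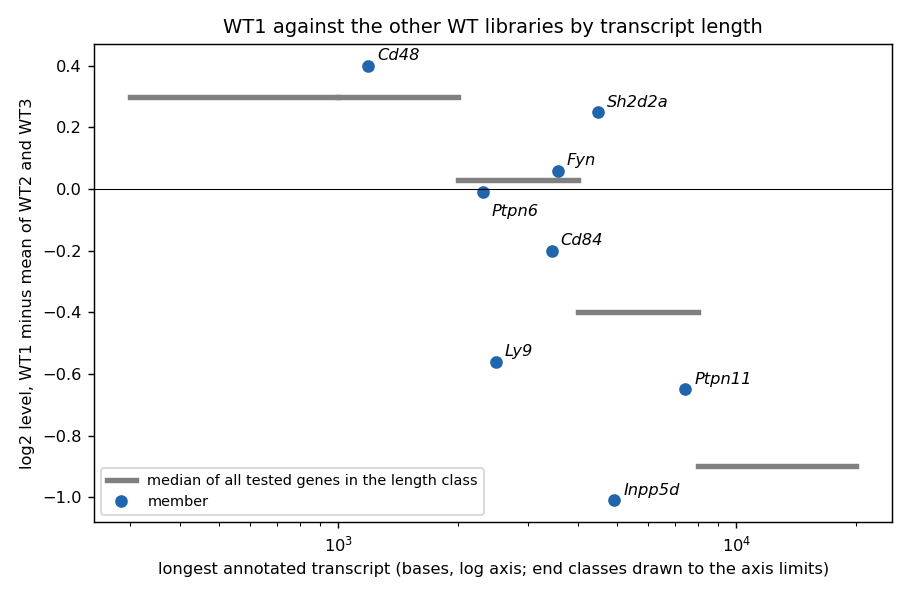
Log2 level in WT1 minus the mean of WT2 and WT3 against the longest annotated transcript in bases (log axis). Line segments give the median over all tested genes of a length class, from 0.30 in the shortest class to -0.90 in the longest, and labelled points are members. Inpp5d and Ptpn11 lie below 0 and Cd48 and Sh2d2a above it. Slamf1, at 3.92, is left out of the plot.

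Ordered by level per length, Sh2d2a came first in both genotypes, at 111.3 ± 3.65 CPM per kb in Cd48 KO and 112.4 ± 11.5 CPM per kb in WT (SD, n = 3 each). In Cd48 KO it was followed by Inpp5d (77.7), Cd84 (36.9), Fyn (26.5), Ptpn6 (22.8), Ptpn11 (8.1), Cd48 (4.08), Ly9 (2.96) and Slamf1 (0.165 CPM per kb). Fyn and Ptpn6 were the only neighbours in that order whose KO libraries overlapped. In WT the order was Inpp5d (66), Cd48 (41.1), Fyn (36.1), Cd84 (32), Ptpn6 (22.4), Ptpn11 (7.01), Ly9 (5.72) and Slamf1 (0.129 CPM per kb) after Sh2d2a. There the neighbours Inpp5d and Cd48, Cd48 and Fyn, Fyn and Cd84, and Ptpn11 and Ly9 overlapped. Inpp5d and Cd48 met only through WT1, where they stood at 39.3 and 49 CPM per kb. In WT2 and WT3 Inpp5d stood at 74.5 and 84.1 CPM per kb and Cd48 at 39.3 and 35. Likewise Ptpn11 and Ly9 met only through WT1, with Ptpn11 at 5.07 CPM per kb there. Cd48 stood below the 2 phosphatases SHP-1 and SHP-2 in Cd48 KO and above both in WT, and by this length Cd84 preceded Fyn in Cd48 KO and followed it in WT. That order changed with summed exon length: Fyn (21.6) then preceded Cd84 (20.2 CPM per kb) in Cd48 KO, with overlapping libraries, and Ptpn6 (18.4) preceded Cd84 (17.5 CPM per kb) in WT, again with overlap.

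Of the Src family kinases described here, Lyn had the highest level per length, at 49.1 CPM per kb in Cd48 KO and 44.7 in WT, followed by Fyn, at 26.5 in Cd48 KO and 36.1 in WT. Src stood at 3.02 CPM per kb in Cd48 KO and 3.74 in WT, and Lck at 1.52 in Cd48 KO and 2.14 in WT. Yes1 stood at 0.357 CPM per kb in Cd48 KO and 0.215 in WT. Lck, the kinase that TSAd binds in T cells, was thus low in both genotypes. Neither Lyn (log2 fold change 0.14, adjusted p 0.762, edgeR) nor Lck (-0.49, adjusted p 0.69) passed. Nor did they without WT1, at -0.02 for Lyn and -0.56 for Lck (adjusted p 0.937 and 0.422, edgeR). Ptprc (CD45), the phosphatase that primes Src family kinases, stood at 113.6 CPM per kb in Cd48 KO and 93.5 in WT (log2 fold change 0.28, adjusted p 0.714, edgeR). That difference rested on WT1, which held 330.6 CPM of Ptprc against 622.2 and 657.7 CPM in WT2 and WT3. With WT1 left out the log2 fold change of Ptprc was 0.03 (adjusted p 0.867, edgeR).

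A list of 49 signalling genes that act with or after these partners had 47 measured and 46 tested members. Of these 0 were called with all 6 libraries by edgeR, where 0.0300% of all tested genes were. At an unadjusted p under 0.05 there were 4, 1 higher and 3 lower, against 6.89% of all tested genes (edgeR). DESeq2 also called 0 of them, where it called 0.811% of all tested genes, with 6 at an unadjusted p under 0.05. With sample quality weights limma-voom called 0 too, where it called 0.713% of all tested genes, with 11 at an unadjusted p under 0.05. For DESeq2 and limma-voom the share of all genes at that unadjusted threshold is not given here. The counts of 6 and 11 therefore cannot be read as more or fewer than among all genes. The median log2 fold change of the 46 was 0.00 with all 6 libraries (edgeR), as it was over all tested genes. Without WT1, 9 of 46 had an unadjusted p under 0.05, 4 higher and 5 lower, against 13.7% of all tested genes (edgeR). The median there was -0.06, against 0.00 over all, and 1 of 46 was called, against 1.82% of all tested genes. That gene was Nck2, which encodes an adaptor linking tyrosine kinases to actin. Nck2 stood at 52, 47.1 and 40.4 CPM in KO1, KO2 and KO3, against 73.5, 74.6 and 60.7 CPM in WT1, WT2 and WT3, with every KO library below every WT library. Its log2 fold change was -0.58 with all 6 libraries (adjusted p 0.69, edgeR) and -0.53 without WT1 (SE 0.12, adjusted p 0.0453). The members of highest level per length were Hcls1 (an actin regulator of blood cells), Dok2 (an inhibitory adaptor) and Lcp2 (the scaffold SLP-76). Their log2 fold changes were -0.18, -0.34 and -0.17 with all 6 libraries, and none passed (adjusted p 0.693, 0.69 and 0.703, edgeR). Leaving out WT1 gave -0.07, -0.06 and -0.02, and again none passed (adjusted p 0.639, 0.761 and 0.926, edgeR).

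The genes most like each receptor across the 6 libraries were sought among the 8676 tested genes that averaged 10 CPM or more, by the root mean square difference of gene-centred log2 levels, where 0 is an identical pattern. For Cd48 they were Ifi209 (0.47, chromosome 1), Tgtp1 (0.79, chromosome 11) and Dapk3 (0.93, chromosome 10). Ifi209, a gene of the interferon-inducible HIN-200 family, stood at 1.4, 0.922 and 1.19 CPM in KO1, KO2 and KO3, against 20.1, 20 and 21.1 CPM in WT1, WT2 and WT3. Tgtp1, an interferon-induced GTPase gene, stood at 7.33, 9.04 and 7.96 CPM in KO1, KO2 and KO3, against 34.1, 25.9 and 21.9 CPM in WT1, WT2 and WT3, and like Cd48 was highest in WT1. For Ly9 they were Smpdl3a (0.17, chromosome 10), Tnfsf4 (0.20, chromosome 1) and Rps4l (0.24, chromosome 6). Tnfsf4, which encodes the costimulatory ligand OX40L, stood at 89.5, 79.1 and 84.8 CPM in KO1, KO2 and KO3, against 126.2, 149.5 and 143.9 CPM in WT1, WT2 and WT3. Like Ly9 it was lowest among the WT libraries in WT1. These genes were chosen for following Cd48 or Ly9 over the same libraries, so their difference between the genotypes is a description, with no test. None of the 8676 genes came close to the pattern of Slamf1, for which the nearest were Arl5c (1.05), Rcor1 (1.11) and Zbtb38 (1.15), all highest in WT1. Slamf1 itself averaged 0.651 CPM, and genes at such levels were not searched.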

How the data were processed

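RNA from 6 libraries of IL-33-treated lung ILC2s (3 Cd48 KO, 3 WT, grouped by sample title) was analysed from gene-level values. Per the labels' protocols, 10 pg of column-purified RNA from cultured cells was amplified with a SMARTer Ultra Low Input kit (v3). The submitters' processing notes name the mm10 build and the tools STAR 2.7.8, Partek 10.0 and DESeq2. Which program counted genes, and whether by strand, is not stated in the sources used here. The values the authors deposited are estimated counts per gene: no source states a normalization, and they were taken as unscaled because whole numbers (within 0.001) make up 54.2% to 62.5% of the values above 0 in each library. The lowest gene total in the table is 10 counts. The estimated counts were rounded before testing.

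Tests were run with edgeR 4.0.16 in R 4.3.3 (robust quasi-likelihood fit, TMM, genotype as the only term, two-sided). The filter was filterByExpr (minimum count 10, minimum total 15), with Benjamini-Hochberg adjustment over all tested genes and calls at an adjusted p under 0.05. SE is the absolute log2 fold change divided by the root of F, and 95% intervals use the fit's degrees of freedom. CPM are counts over TMM-adjusted totals. Log2 levels used a prior count of 2. Positions and lengths come from GENCODE M21 (GRCm38), which matched 17022 symbols (97.6%), and promoters from RefSeq (GRCm38.p6), which matched 7 of the 9 members, Ly9 and Sh2d2a being the others. Slamf1 rate ratios used an exact binomial interval on pooled counts. No 2 replicates agreed within sampling noise (chi-square per gene 5.52 to 148.81). The edgeR test was also run on simulated counts. These held no outlying library like WT1 and no length trend, so that check does not cover the traits of WT1.

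Alternatives were DESeq2 1.42.0, limma-voom (limma 3.58.1) with and without sample quality weights, other size factors and filters, a transcript length trend (lowess span 0.3), the replicate number as a block, summed exon length, an adjusted p of 0.1, and each library left out. A lone remaining WT library was taken to vary like the KO libraries. Named genes were the 9 members, the other receptor and SAP genes, and of the downstream list those called and the 3 of highest level per length, besides the 3 genes most like Cd48, Ly9 and Slamf1. The Src family kinases, Ptprc and the marker genes named were added after their values were seen. The members and lists were chosen with earlier results of these data known.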

Additional observations from a re-analysis of the deposited data

How the results depend on the processing

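The log2 fold changes of Cd48 and Ly9 were below 0 under every alternative run. With all 6 libraries DESeq2 called 108 genes, 2 of them members (Ly9 -0.95, adjusted p 0.0338). With sample quality weights, limma-voom called 95, 3 of them members (Ly9 -1.10, adjusted p 0.0164; Slamf1 4.05, adjusted p 0.0324). With the replicate number as a block 0 genes and 0 members were called in edgeR, with 776 genes at an unadjusted p under 0.05, and Cd48 was at -3.32 (adjusted p 0.129). Deviations from the group means correlated at -0.049, -0.033 and -0.009 between same-numbered libraries, and at -0.035 to 0.065 between the others. Since WT1 stood apart and weighs on every WT deviation, this cannot decide whether the numbers pair the libraries. Leaving out libraries, singly or with WT1, gave 0 to 517 called genes and 0 to 4 called members, the 0 being without KO1 or KO3 (662 and 335 genes at an unadjusted p under 0.05 in edgeR), with Cd48 at -3.45 to -3.11 and Ly9 at -1.23 to -0.79. Without WT1, DESeq2 called 412 genes, limma-voom 194, RLE size factors 241 and no filter 217, with Ly9 at -1.11, -1.08, -1.11 and -1.11 and 2, 3, 3 and 2 members called. Slamf1 had no value under a filter at a mean of 10 CPM.

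Fold changes near 0 changed sign with the libraries used. Leaving out libraries gave ranges of -0.18 to 6.60 for Slamf1, -0.056 to 0.105 for Sh2d2a, -0.117 to 0.452 for Inpp5d, -0.050 to 0.109 for Ptpn6 and -0.091 to 0.381 for Ptpn11. Without WT1, Sh2d2a was at 0.072 in DESeq2, 0.075 in limma-voom, 0.072 with RLE size factors and 0.078 with no filter, and Inpp5d at -0.030, -0.036, -0.030 and -0.025. With all 6 libraries Sh2d2a was at 0.069 with sample quality weights and Ptpn11 at -0.024 with the transcript length trend. The causes were not tested. Per summed exon length in place of the longest transcript, mean levels over the libraries were 18.9 CPM per kb for Cd84, 3.27 for Ly9, 0.106 for Slamf1, 84.4 for Sh2d2a, 25.5 for Fyn, 46.7 for Inpp5d and 18.6 for Ptpn6. Slamf1, Slamf6, Slamf7 and Cd2 are limited by depth, at 0 to 24 counts per library.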
